A study of Mus musculus with 6 samples.

Results

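The genes described here encode enzymes of the mitochondrial citrate cycle, measured in mouse hearts with and without forced expression of the miR-302-367 microRNA cluster. The 9 members are Cs, Idh2, Idh3a, Idh3b, Idh3g, Ogdh, Suclg1, Fh1 and Mdh2. They were listed by their place in the cycle, but with earlier results of these data known. All 9 had a probe of their own, out of 22180 genes on the array. For a gene with several probes the probe with the highest mean over the 6 arrays was used, and each of the 9 members had a single probe. The arrays were Affymetrix arrays of whole heart RNA, 1 per sample, and the strain was mixed C57BL/6 x 129S6. The 3 control hearts carried Nkx2.5-Cre alone, a recombinase expressed in cardiac progenitors and their descendants. The 3 transgenic hearts carried Nkx2.5-Cre together with R26R-miR302-367, a Cre-dependent copy of the cluster at the Rosa26 locus. Both groups thus carried the Cre allele, and the labels name no other treatment. The protocol and the source name give postnatal day 14, while the age field gives E14, and the conflict is not settled by the labels. They do not say whether the hearts came from separate animals, so the p-values speak only for the spread among these 6 samples, and part of that spread may be technical.

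The citrate cycle burns the acetyl groups that come from fatty acids, pyruvate, ketones and amino acids, and passes their electrons to the respiratory chain as NADH and FADH2. Citrate synthase opens the cycle by joining acetyl-CoA to oxaloacetate. Isocitrate dehydrogenase and the oxoglutarate dehydrogenase complex carry out its oxidative decarboxylations, and succinyl-CoA ligase, succinate dehydrogenase, fumarase and malate dehydrogenase return the carbon to oxaloacetate. The heart is rich in mitochondria, and its oxidative capacity grows in the weeks after birth.

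The cardiac label and the genotype were checked first. All 10 cardiomyocyte markers were measured and 0 of them lay among the dimmest 33.3% of genes. Tnnt2, cardiac troponin T, averaged 13.38 ± 0.048 in control hearts and 13.36 ± 0.076 in transgenic hearts on the log2 scale (SD, n = 3 each). The cluster's 5 microRNA genes exceeded all control values in each transgenic heart. The differences of group means ran from 2.99 (Mir302b) to 6.61 (Mir302c) on the log2 scale. Arrays of a group correlated at 0.982 to 0.989 over all probes, and their medians lay between 5.45 and 5.54. Over all genes, 2465 of 22180 passed an adjusted p of 0.05, or 11.1%. Of all genes, 5.76% were called lower and 5.35% higher in transgenic hearts, so that 51.8% of the calls were lower. That split was 63.6% after a further quantile normalization and 61.9% after centring each array on its median.

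Of the 9 members, 5 fell in transgenic hearts, and Cs fell most among them. Ogdh, Mdh2, Suclg1 and Fh1 also fell, 0 members rose, and Idh3a, Idh3b, Idh3g and Idh2 did not pass the test. Thus 5 of 9 members were called lower, against 5.76% of all genes. An unadjusted p under 0.05 with a negative difference was found for 8 of the 9, against 13.4% of all genes (25.4% in either direction). For 8 the transgenic values all lay below the control values, as they did for 16.7% of all genes. Non-overlap in either direction was found for 30.9% of all genes, and in the upward direction for 14.2%. The median log2 difference of the members was -0.31, against -0.03 over all genes tested. The members are bright on the array, at the 90.7 to 99.8 percentile of mean value, and bright genes were called more often. Among the 2219 genes from the 90 percentile up, 24.1% were called, 15.5% were called lower and 32% lay below the controls without overlap, with a median difference of -0.01. Calls of Cs, Ogdh and Mdh2 held in each of 14 alternative settings, while Fh1 passed in 7 of them and Suclg1 in 9. With the replicate number as a block, 3 of 9 members were called. With variances trended on intensity and estimated robustly, 8 were called.

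**Figure D1:**
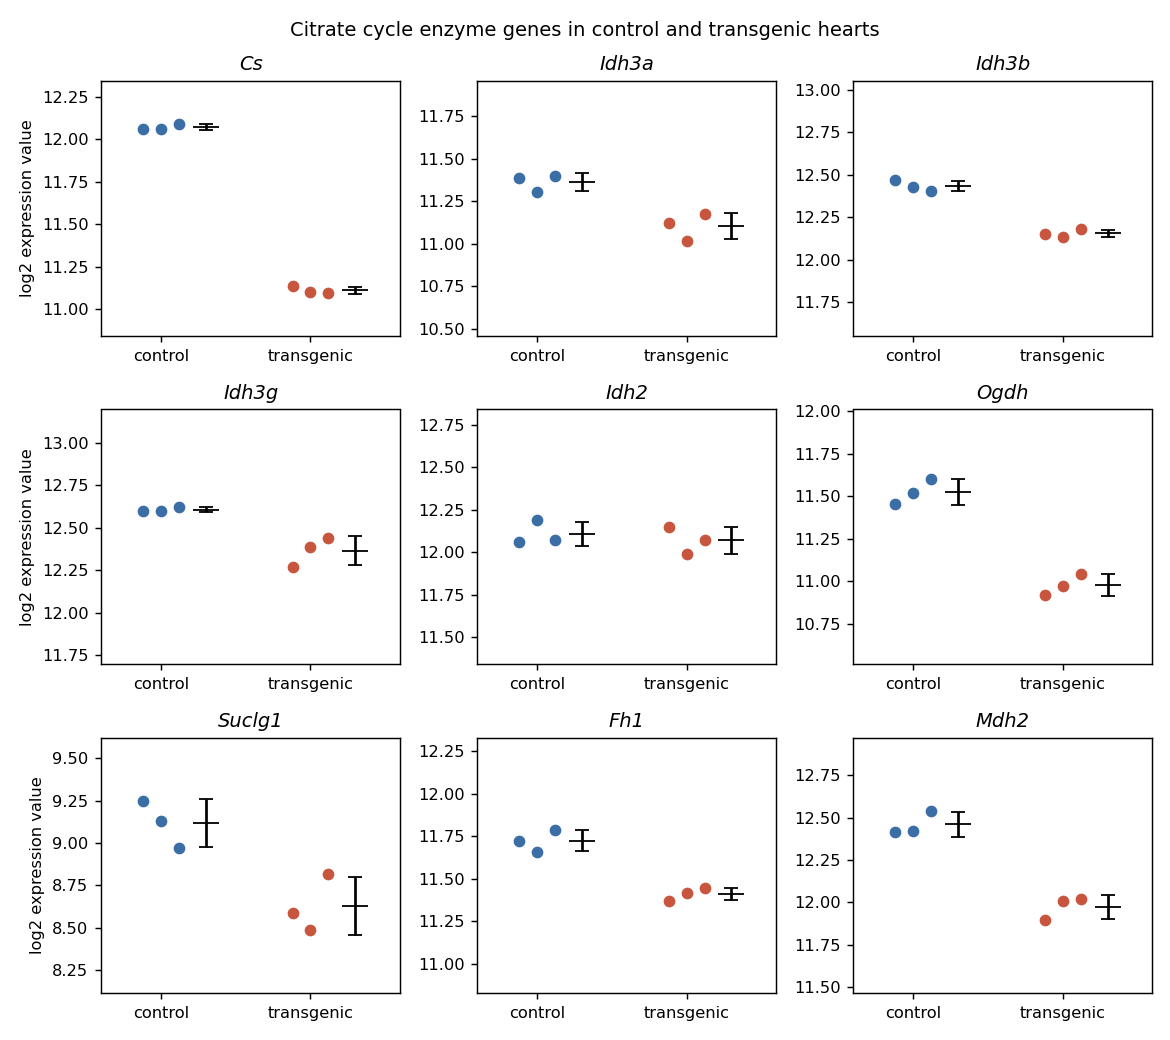
Log2 expression value of each member gene on the 6 arrays. Blue points are the 3 control hearts, orange points the 3 transgenic hearts, and the black bar beside each group is its mean ± SD; each panel spans the same height of the log2 scale but at its own level. The groups are apart for 8 genes, by the widest margin for Cs, and overlap for Idh2.

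Cs, citrate synthase, catalyses the entry step of the cycle and its activity is widely used as a marker of mitochondrial content. Its log2 values were 12.06, 12.06 and 12.09 in control hearts and 11.14, 11.10 and 11.10 in transgenic hearts. The lowest control lay 0.93 above the highest transgenic heart, the widest gap of the 9 members. The difference was -0.96 with an SE of 0.078 (95% interval -1.14 to -0.78, limma adjusted p = 0.000309), which puts the transgenic level at 51.4% of the control level. It ranked 137 from the most negative of the 22180 differences. In bulk tissue, fewer cells of a type and less RNA per cell cannot be told apart. Summed on the linear scale, the 10 cardiomyocyte markers ranged from 69250 to 69970 in control and from 66420 to 67310 in transgenic hearts, and 0 of 10 passed the test. The 10 endothelial markers summed to 7216 to 7621 and 5326 to 6087, with 6 called lower. The 10 macrophage markers summed to 1545 to 1779 and 974 to 1144, with 7 called lower. Smooth muscle and pericyte markers summed to 14570 to 15980 and 10110 to 11350, with 4 of 8 lower and 1 higher. Fibroblast markers ranged from 10810 to 11840 and from 10700 to 11500, with 1 of 10 higher. The part of these markers in the citrate cycle values was not tested.

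Csl, a citrate synthase like gene, had a dimmer probe, at 4.98, 5.05 and 4.83 in control and 5.30, 5.41 and 5.24 in transgenic hearts. It rose by 0.36 (SE 0.095, adjusted p = 0.0425), opposite in direction to Cs. That call was lost without each of the 6 arrays in turn (adjusted p from 0.0531 to 0.149). Whether the probes of Cs and Csl share sequence was not tested.

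Promoters of 4 members are shown to let the windows of genes that moved differently be compared: Cs, which fell most, Mdh2, which also fell, Idh3b, the NAD-dependent subunit closest to the threshold, and Idh2, whose groups overlapped. Each is 250 bases before to 50 bases after a RefSeq start, 5′ to 3′ on the strand of the gene, in build GRCm38.p6. Capitals mark matches on either strand to TNAAGGTCA (the estrogen-related receptor element), GCGCANGCG (NRF1), CCGGAAG (ETS factors such as GABP), TGACGTCA (the cAMP response element), GGGCGG (Sp1), CCAAT (NF-Y) or AAGATGGC (YY1).
Cs (chr10:128337477-128337776, plus strand): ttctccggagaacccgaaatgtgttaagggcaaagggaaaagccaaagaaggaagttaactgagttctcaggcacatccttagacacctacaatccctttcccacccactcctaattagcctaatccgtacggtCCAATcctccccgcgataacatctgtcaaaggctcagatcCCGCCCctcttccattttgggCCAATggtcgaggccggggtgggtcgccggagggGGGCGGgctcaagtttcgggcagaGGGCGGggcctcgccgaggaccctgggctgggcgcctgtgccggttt
Mdh2 (chr5:135778399-135778698, plus strand): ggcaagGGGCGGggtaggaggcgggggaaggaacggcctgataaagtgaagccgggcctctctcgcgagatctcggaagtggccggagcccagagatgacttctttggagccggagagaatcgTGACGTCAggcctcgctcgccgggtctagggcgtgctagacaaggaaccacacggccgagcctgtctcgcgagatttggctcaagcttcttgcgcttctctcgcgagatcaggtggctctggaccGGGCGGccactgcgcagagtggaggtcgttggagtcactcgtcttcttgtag
Idh3b (chr2:130284402-130284701, minus strand): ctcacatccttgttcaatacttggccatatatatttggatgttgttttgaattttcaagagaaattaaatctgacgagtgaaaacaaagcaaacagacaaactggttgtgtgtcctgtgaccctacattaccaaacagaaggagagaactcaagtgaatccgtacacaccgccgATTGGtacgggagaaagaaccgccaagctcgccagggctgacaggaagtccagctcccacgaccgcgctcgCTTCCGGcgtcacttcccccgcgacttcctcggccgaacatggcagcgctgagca
Idh2 (chr7:80115301-80115600, minus strand): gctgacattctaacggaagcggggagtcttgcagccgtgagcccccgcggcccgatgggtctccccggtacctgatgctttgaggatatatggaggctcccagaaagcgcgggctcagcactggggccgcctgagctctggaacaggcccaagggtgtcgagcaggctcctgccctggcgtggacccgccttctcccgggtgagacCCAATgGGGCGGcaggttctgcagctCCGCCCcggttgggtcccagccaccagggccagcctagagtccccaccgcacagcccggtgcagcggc

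The Cs window held 3 Sp1 and 2 NF-Y matches, and that of Idh2 2 Sp1 matches and 1 NF-Y match. Cs and Idh2 thus held the same kinds of match, but these strings were common, in 35.7% (GGGCGG) and 37.4% (CCAAT) of all windows. Whether any match bears on the differences was not tested. The Mdh2 window held 1 cAMP response element and 2 Sp1 matches, and that of Idh3b 1 ETS and 1 NF-Y match. Windows were found for 8 of the 9 members, all but Idh3a, with 6 windows for Ogdh. A member was counted for a string when any of its windows matched. The entries of Ogdh are therefore not comparable with a share of single windows. CCAAT was in 37.4% of all 32851 windows of this length and in windows of 5 members (Cs, Idh2, Idh3b, Ogdh and Fh1). GGGCGG was in 35.7% of windows and in those of Cs, Idh2, Ogdh, Fh1 and Mdh2, and its longer form GGGGCGGGG, which contains it, in 11.4% and in Ogdh and Mdh2. CCGGAAG was in 8.86% of windows and in Idh3b and Idh3g, and ACCGGAAG, which contains it, in 2.3% and in Idh3g. TGACGTCA was in 1.79% of windows and in Ogdh and Mdh2, AAGATGGC in 2.75% and in Idh3g, and GCGCANGCG in 6.25% and in Ogdh. TNAAGGTCA was in 1.28% of windows and TCAAGGTCA, a form of it, in 0.423%, both in 0 members. Their core AAGGTCA was in 4.72% and in Ogdh. A match is a run of letters, not a site shown to be bound.

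Isocitrate is oxidised in mitochondria by separate enzymes. The NAD-dependent enzyme is built from the catalytic subunit Idh3a and the subunits Idh3b and Idh3g, while Idh2 uses NADP. Idh3a had log2 values of 11.39, 11.30 and 11.39 in control and 11.12, 11.02 and 11.17 in transgenic hearts. Idh3b had 12.47, 12.43 and 12.41 in control and 12.15, 12.13 and 12.18 in transgenic hearts. Idh3g had 12.60, 12.60 and 12.62 in control and 12.27, 12.39 and 12.44 in transgenic hearts. For these 3 subunits every transgenic heart lay below every control heart, with gaps of 0.13, 0.23 and 0.16. The same held for 16.7% of all genes and for 32% of the 2219 brightest. The differences were -0.26 for Idh3a (SE 0.086, adjusted p = 0.0933), -0.28 for Idh3b (SE 0.079, adjusted p = 0.0561) and -0.24 for Idh3g (SE 0.085, adjusted p = 0.113). None passed 0.05 over all genes. Their 95% intervals of -0.45 to -0.06, -0.46 to -0.10 and -0.43 to -0.05 lay below 0 before adjustment. An unadjusted limma p under 0.05 with a negative difference was found for 13.4% of all genes. With the intensity trend all 3 were called, at adjusted p-values of 0.0128, 0.00158 and 0.00948. Idh3b was also called with the dimmest 33.3% of genes left out (adjusted p = 0.031) and with array weights (0.0337).

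Idh2 had log2 values of 12.06, 12.19 and 12.08 in control and 12.15, 11.99 and 12.07 in transgenic hearts, and it was the member whose groups overlapped. Its difference was -0.04 (SE 0.088, 95% interval -0.24 to 0.16, adjusted p = 0.839). Idh1, the cytosolic NADP-dependent enzyme, likewise had -0.04 (adjusted p = 0.859).

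Ogdh, the first subunit of the oxoglutarate dehydrogenase complex, had log2 values of 11.45, 11.52 and 11.60 in control and 10.92, 10.97 and 11.04 in transgenic hearts. The groups were 0.41 apart. It fell by 0.55 (SE 0.087, 95% interval -0.74 to -0.35, adjusted p = 0.00534), to 68.4% of the control level. Its partners in the complex were lower as well. Dlst, the succinyltransferase core, fell by 0.57 (SE 0.14, adjusted p = 0.0378) and Dld, the dihydrolipoamide dehydrogenase shared with pyruvate dehydrogenase, by 0.48 (SE 0.081, adjusted p = 0.00691). The transgenic values of Dlst were uneven, at 10.95, 10.38 and 10.87, and its difference was -0.40 without the heart at 10.38 (adjusted p = 0.0683). The Dlst call was also lost without any control array, at 0.0907, 0.0718 and 0.0834, and without transgenic 3, at 0.0631. Ogdhl, a paralog of Ogdh, fell by 0.98 (SE 0.13, adjusted p = 0.00289), while Dhtkd1, which acts in lysine breakdown, had 0.28 (adjusted p = 0.122).

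Suclg1, the alpha subunit shared by both forms of succinyl-CoA ligase, had log2 values of 9.25, 9.13 and 8.97 in control and 8.59, 8.49 and 8.82 in transgenic hearts. Its spread was the largest of the members, with SDs of 0.14 and 0.17, and the groups were 0.15 apart. It fell by 0.49 (SE 0.12, 95% interval -0.75 to -0.23, adjusted p = 0.0297), to 71.3% of the control level. Suclg1 missed the threshold when control 1 (adjusted p = 0.0996), control 2 (0.0688), transgenic 1 (0.102) or transgenic 2 (0.111) was left out, and under the replicate block (0.0566). The beta subunits set the nucleotide that the ligase makes. Sucla2, of the ATP-forming enzyme, fell by 0.70 (SE 0.11, adjusted p = 0.00502), while Suclg2, of the GTP-forming enzyme, had -0.07 (95% interval -0.25 to 0.11, adjusted p = 0.642). Within arrays, the log2 ratio of Sucla2 to Suclg2 was -0.06, -0.14 and -0.0028 in control and -0.52, -0.86 and -0.69 in transgenic hearts. This ratio was chosen after its values were seen and was given no test.

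Succinate dehydrogenase, which is also complex II of the respiratory chain, has no member among the 9. Its flavoprotein subunit Sdha fell by 0.30 (SE 0.078, adjusted p = 0.0412), a call lost without each array in turn (adjusted p from 0.0683 to 0.122) and with the replicate block (0.0868). Sdhb had -0.28 (adjusted p = 0.118), Sdhc -0.24 (0.112) and Sdhd 0.05 (0.782). The assembly factors Sdhaf1, Sdhaf2, Sdhaf3 and Sdhaf4 had values between -0.14 and 0.26, and 0 of the 4 passed the test.

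Fh1, fumarase, had log2 values of 11.72, 11.66 and 11.79 in control and 11.37, 11.41 and 11.44 in transgenic hearts, with a gap of 0.22 between the groups. It fell by 0.31 (SE 0.083, 95% interval -0.50 to -0.13, adjusted p = 0.0432), to 80.4% of the control level. Without any 1 of the 6 arrays Fh1 missed the threshold, with values from -0.35 to -0.28 and adjusted p-values from 0.0624 to 0.14, and with the replicate block it stood at 0.0808. Fh1 lay close to the threshold on one side and Idh3b on the other.

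Mdh2, mitochondrial malate dehydrogenase, closes the cycle and also serves the malate-aspartate shuttle, which carries cytosolic reducing equivalents into mitochondria. Its log2 values were 12.42, 12.42 and 12.54 in control and 11.90, 12.01 and 12.02 in transgenic hearts, 0.40 apart. Mdh2 fell by 0.48 on the log2 scale (SE 0.087, 95% interval -0.68 to -0.29, adjusted p = 0.00911), to 71.5% of the control level. The cytosolic form Mdh1 had -0.16 (95% interval -0.35 to 0.03, adjusted p = 0.275). The difference between the forms was not tested.

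**Figure D2:**
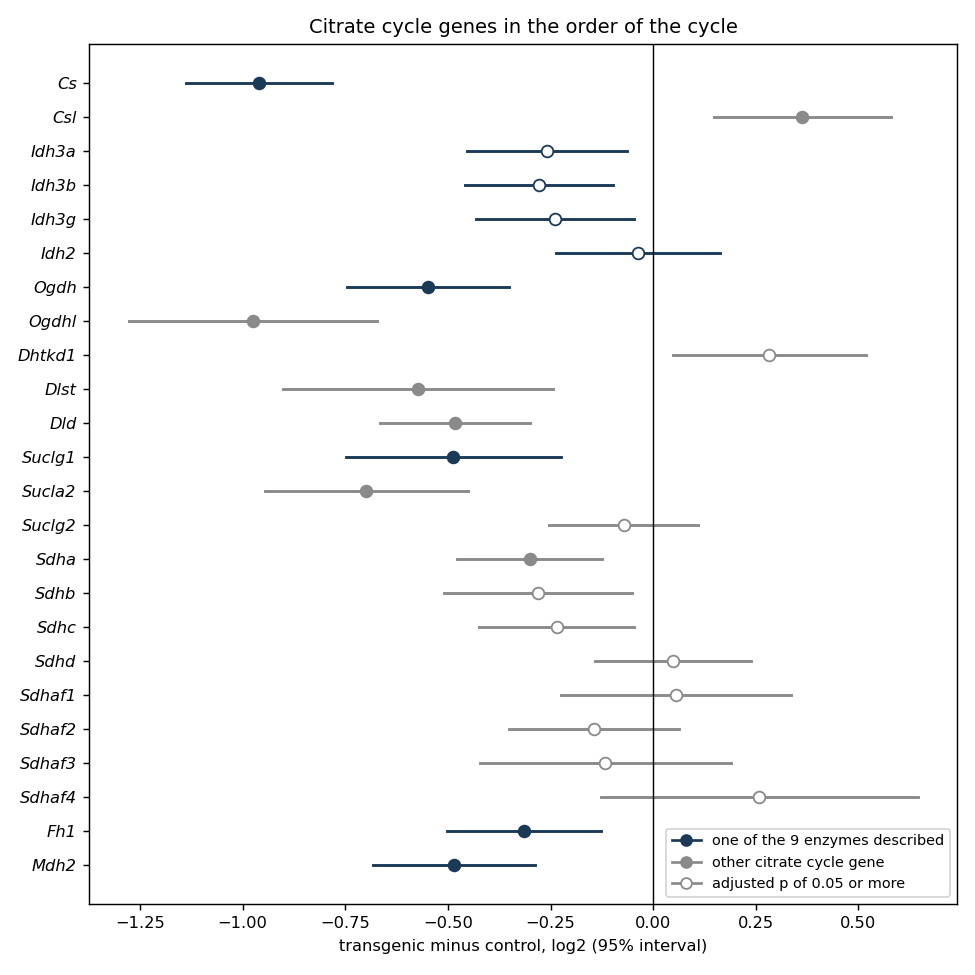
Difference between transgenic and control hearts on the log2 scale for each measured citrate cycle gene, ordered along the cycle from Cs to Mdh2. Lines are 95% intervals from limma, dark points are the 9 enzymes described and grey points other citrate cycle genes, and open points did not pass an adjusted p of 0.05. Cs and Ogdhl lie farthest to the left at -0.96 and -0.98, and Csl lies farthest to the right at 0.36.

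Ratios within an array were used to ask whether paired members changed by unequal amounts. With 3 arrays against 3, the two-sided exact permutation test cannot go below 0.10, so none of the 6 ratios could pass 0.05. The log2 ratio of Cs to Mdh2 was -0.36, -0.36 and -0.45 in control and -0.76, -0.90 and -0.92 in transgenic hearts. It was lower in all 3 transgenic hearts, by 0.47 in the mean, at the smallest p this exact test allows (0.1, adjusted 0.3 over the 6 ratios). The ratio of Idh2 to Idh3a was 0.67, 0.89 and 0.68 in control and 1.03, 0.97 and 0.90 in transgenic hearts, higher by 0.22 without overlap (exact p = 0.1, adjusted 0.3). Among the 3 subunits of the NAD-dependent enzyme the ratios moved by 0.02 (Idh3a to Idh3b), -0.02 (Idh3a to Idh3g) and -0.04 (Idh3b to Idh3g). These shifts were smaller than the SD of either group, which ranged from 0.043 to 0.11. The exact p-values of these ratios were 0.7, 0.9 and 0.6. The ratio of Ogdh to Suclg1 moved by -0.06 against SDs of 0.22 and 0.13 (exact p = 0.7).

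**Figure D3:**
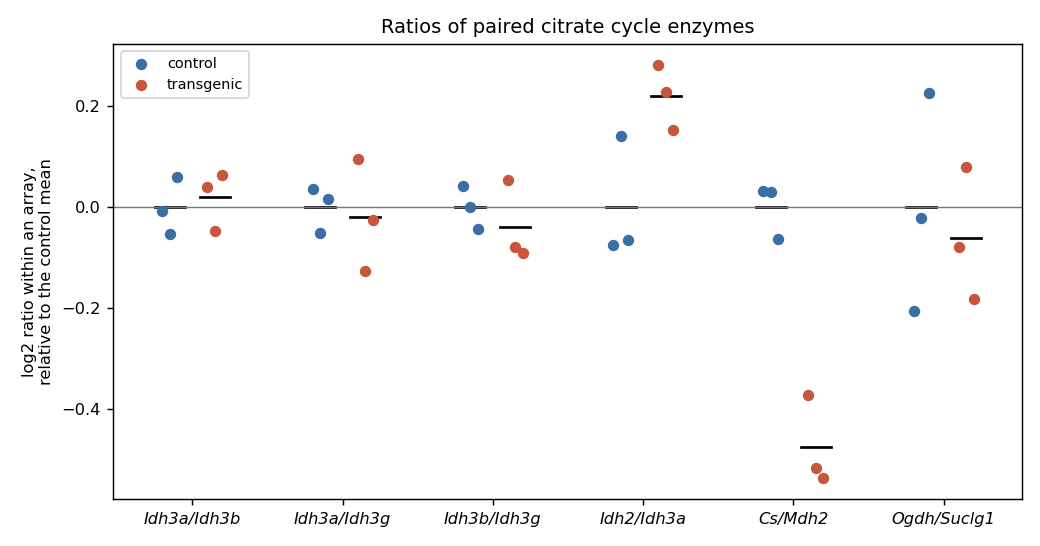
Log2 ratio of 2 members within each array, shown relative to the mean of the 3 control hearts. Blue points are control and orange points transgenic hearts, and black lines are group means. The groups are apart for Cs/Mdh2, lower by 0.47, and for Idh2/Idh3a, higher by 0.22, and overlap for the other 4 ratios.

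The pattern that the members shared across arrays was mostly the difference between the groups. Within the control group they did not all move alike. For control 1 to 3, Suclg1 deviated from its group mean by 0.13, 0.015 and -0.15, and Mdh2 by -0.042, -0.040 and 0.082. Each member was centred on its own mean, and the mean of the 9 stood at 0.20, 0.19 and 0.21 in control and -0.22, -0.23 and -0.15 in transgenic hearts. Transgenic 3 was thus nearest to the controls, and it had the highest transgenic value for 7 of the 9 members, all but Cs and Idh2. The same heart had the lowest transgenic value of 4 of the 5 cluster genes, of Mir302a at 8.40 against 9.31 and 8.80 but of Mir302c only at 9.97 against 10.00 and 9.97, and Mir367 was lowest in transgenic 2, at 7.25 against 7.41 and 7.31. Transgenic 3 was also lowest for Myh7, the slow beta myosin heavy chain, at 8.59 against 9.38 and 9.12. Whether the level of the cluster plays a part in this was not tested. The Pearson correlation of single members with the mean of the 9 over the 6 arrays ran from 0.921 for Suclg1 to 0.989 for Idh3b, apart from Idh2 at 0.286. Each member enters that mean, and the group difference makes up most of it.

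By the same measure the genes outside the members with the most similar pattern over the 6 arrays were Coq5, Maob, Fblim1, Oxct1 and Dusp1, with Pearson correlations of 0.9996 to 0.997. Coq5, a methyltransferase of ubiquinone synthesis, was at 10.53, 10.52 and 10.55 in control and 9.85, 9.81 and 9.95 in transgenic hearts. Maob, a mitochondrial monoamine oxidase, fell by 0.80 and Fblim1, an adaptor of cell adhesions, by 1.16 on the log2 scale. Oxct1, which activates ketone bodies so that they can enter the cycle, fell by 1.30. Dusp1, which dephosphorylates MAP kinases, fell by 1.32. All 5 were lower in every transgenic heart. The points are 6 arrays in 2 groups, so the measure mostly follows the difference between the groups.

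Genes around the cycle were read from lists drawn up by role. Of 15 measured other citrate cycle genes, 5 fell (Ogdhl, Sucla2, Dlst, Dld and Sdha) and 1 rose (Csl), with a median of -0.14. Of 17 measured genes that bring carbon to the cycle or draw it off, 11 fell and 0 rose, with a median of -0.39. When 1 array was left out, 7 to 9 of the 17 fell. The subunits of the pyruvate dehydrogenase complex were among the 11. Pdha1 fell by 0.68, Pdhb by 0.39, Dlat by 0.50 and Pdhx by 0.69 on the log2 scale. Me3, a mitochondrial malic enzyme, which draws malate off to pyruvate, fell by 1.16 on the probe used. Its second probe, nearly as bright at a mean of 6.70 against 6.94, had -0.04 (adjusted p = 0.865 when all probes were tested). Mmut, which delivers succinyl-CoA from propionate, fell by 0.72 and Pcca and Pccb, the propionyl-CoA carboxylase subunits, by 0.35 and 0.39. Pcx, pyruvate carboxylase, had -0.10 (adjusted p = 0.583).

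Of 9 measured carriers and shuttle genes, 6 fell and 0 rose, with a median of -0.37, and 3 to 5 fell when 1 array was left out. Mpc1, a subunit of the mitochondrial pyruvate carrier, fell most, by 1.41 (SE 0.093, adjusted p = 0.000132), from 12.83, 12.87 and 12.68 to 11.37, 11.30 and 11.48, and its second probe fell by 0.79. Among genes that serve the malate-aspartate shuttle beside Mdh2, Slc25a12 fell by 0.51 on the log2 scale, Slc25a11 by 0.37, Slc25a13 by 0.34, Got1 by 0.44 and Got2 by 0.44, while Mdh1, with -0.16, did not pass the test (adjusted p = 0.275). Slc25a22, a glutamate carrier, fell by 0.60. The citrate carrier Slc25a1 had 0.16 (adjusted p = 0.268). Of 5 cytosolic counterparts, 1 fell, the malic enzyme Me1, by 1.29 (adjusted p = 0.000613), and Aco1, Idh1, Mdh1 and Acly, which were not called, had values between -0.16 and 0.12. Of 6 measured lipoylation and calcium uptake genes, 2 fell: Lipt1, a lipoyltransferase, by 0.54, and Mcu, the pore of the calcium uniporter, by 0.33. Without any 1 array, 1 of them was called.

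Other mitochondrial proteins were taken as a list outside the cycle. Of 22 measured, 3 fell and 1 rose, with a median of -0.21, and 1 fell and 0 rose when 1 array was left out. The difference was negative for 16 of the 22, against 56.7% of all genes. It was negative for 9 of the 9 members and for 10 of the 15 other citrate cycle genes. For 11 of the 22 every transgenic value lay below every control value, against 16.7% of all genes. For 2 every transgenic value lay above, against 14.2%. Mfn2, a mitochondrial fusion protein, fell by 0.69, Clpp, a matrix protease, by 0.35 and Immt, of the inner membrane organising complex, by 0.34, while Tomm20, an outer membrane import receptor, rose by 0.37. Vdac1, the outer membrane channel, had -0.21 (adjusted p = 0.13), and Tfam, which packages mitochondrial DNA, 0.11 (95% interval -0.24 to 0.46, adjusted p = 0.725). Of 12 transcriptional regulators of oxidative genes, 3 fell and 1 rose, with a median of -0.07, and 1 to 2 fell when 1 array was left out. The 1 rise was lost (0 called higher) with the replicate block and without any 1 array other than control 3. Ppara fell by 0.43, Perm1 by 0.41 and Esrrb by 0.50, and Ppargc1b rose by 0.41. Esrra had -0.21 (adjusted p = 0.16), Ppargc1a -0.28 (0.171), Nrf1 0.10 (0.519) and Gabpa 0.22 (0.185). These counts are set beside 5.76% of all genes called lower, but that share was 15.5% among the 2219 brightest genes. Timm23, Vdac1 and Mfn2 were among the listed genes of such brightness, while others, such as Esrrb, were dimmer. No list was compared with genes of like brightness, and the lists were not tested against one another.

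**Figure D4:**
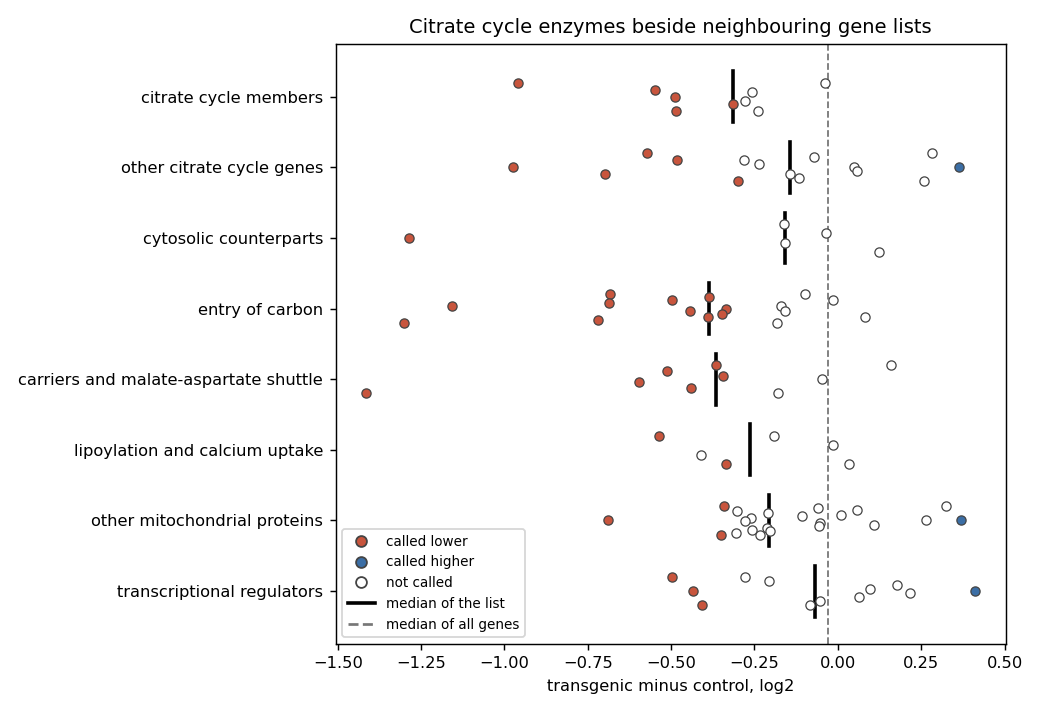
Log2 difference, transgenic minus control, of each measured gene in the citrate cycle members (top) and in 7 neighbouring lists. Orange points were called lower, blue points higher and open points neither; the black bar is the list's median and the dashed line the median of all 22180 genes at -0.03. List medians run from -0.39 for the list labelled entry of carbon, which also holds genes that draw carbon off, to -0.07 for transcriptional regulators.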

How the data were processed

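Gene expression was measured on 6 Affymetrix arrays, 3 control and 3 transgenic hearts. Total RNA (100 ng, per the labels' protocols) was primed with poly(T), amplified through T7 transcription and biotinylated. The authors deposited log2 expression values; oligo, RMA and limma are named in the submitters' processing notes, and their versions, the background correction and any filter were not given in the sources used here. Of 41345 probes, 23521 had 1 gene symbol in the platform annotation and were named, which gave 22180 genes. A linear model without covariates was fitted with limma 3.58.1 (lmFit, then eBayes; R 4.3.3), and p-values were adjusted over all 22180 genes by Benjamini-Hochberg, with 0.05 as threshold. A gene is "called" when it passes. The 6 arrays leave 4 residual degrees of freedom per gene, and their number limits the precision; no detection calls were used. Member ratios were compared by exact permutation tests.

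The members and lists were chosen with earlier results of these data known. All members were named, with up to 5 called genes by smallest p from each list, any other citrate cycle gene, the 5 genes most like the members' mean, and the label checks; any other gene named was chosen after its values were seen. The 11 promoter strings were also chosen late. Alternatives covered dim genes, probe choice, normalization, variance model, weighted arrays, a block for the replicate number, and each array left out. Same-numbered arrays of the groups deviated together at correlations of 0.016, -0.13 and 0.014, so the numbers were not taken to pair samples. The fit was tested on simulated data.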

Additional observations from a re-analysis of the deposited data

How the results depend on the processing

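Cs, Ogdh and Mdh2 kept their direction and their call under all 14 alternatives, with highest adjusted p-values of 0.00304, 0.0299 and 0.0452. Some alternatives could change only the p-values of the members, not their differences. These were dim genes left out, the probe choices, the intensity trend and the replicate block. The count of members called lower was 8 with an intensity trend and robust variance, 3 with the replicate block and 3 to 4 when 1 array was left out, against 5; leaving out an array also removes degrees of freedom. Idh2 was not called in any alternative and turned from -0.04 to 0.0024 without control 2 and 0.0015 without transgenic 2, with a range of -0.078 to 0.0024 over the arrays left out. Other citrate cycle genes called lower ranged from 3 to 4 without 1 array, against 5. The rise of Csl was lost (0 called higher, against 1) after quantile normalization again, with arrays centred on the median, with the intensity trend, with the replicate block and without any 1 array. Among other mitochondrial proteins, 8 were called lower with the intensity trend, against 3. Genes that were never called also changed sign: Sdhd was -0.016 after quantile normalization, and Sdhaf1 was -0.0015 with array weights, -0.054 without control 3 and -0.031 without transgenic 3, in a range of -0.054 to 0.12. Over all genes, 602 to 1279 were called lower and 569 to 970 higher when 1 array was left out, against 1278 and 1187, with the fewest without transgenic 2. With the intensity trend 1589 of all genes were called lower, and with the replicate block 999. The ratio of Idh3a to Idh3b moved from 0.02 to -0.052 with renewed quantile normalization, and ranged without 1 array from -0.0069 to 0.053. The cause of these changes was not tested. The replicate block changed no other member's call than those of Suclg1 and Fh1; the shared numbers have no stated meaning in the labels.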
